A study of Mus musculus with 24 samples.

Results

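The difference in islet gene expression between NOD mice and age-matched control mice was compared at 12 and at 4 weeks of age, across all genes measured. It rested on 12 of the 24 arrays of the series, 6 from each of these ages, and on 18085 genes. On each array, islet RNA of 1 female NOD/LtJ mouse (NOD) was labelled with Cy5 and hybridised with a Cy3-labelled pool of islet RNA from 6 female mice of the strain NOD.B10Sn-H2b/J (NOD.B10) of the same age. Islets were obtained by digesting the pancreas with collagenase, and 300 ng of RNA was labelled. The strains share the NOD background. NOD.B10 differs at the major histocompatibility complex (MHC), where it carries H2b, and stays free of diabetes. The labels and the pool channel, whose values correlated at 0.991 or higher between the 4 week arrays and at 0.993 or higher between the 12 week arrays, were read as 1 pool for each age. The controls were therefore 1 sample per age with no spread of their own. A change in NOD islets with age, a change in NOD.B10 islets with age and a difference between the 2 pools cannot be told apart in a ratio. NOD was in Cy5 on every array. An effect of the dye on a probe cancels when ages are subtracted only if it is the same at both ages, which was not tested.

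In NOD mice, T cells, B cells, macrophages and dendritic cells collect around and then within the islets before the beta cells are lost and diabetes begins. This infiltrate, called insulitis, can take on the organisation of lymphoid tissue, with T and B cell zones held by homing chemokines and with vessels that let lymphocytes in. Cells that fold much secretory protein, such as beta cells and the acinar cells of the exocrine pancreas, raise chaperones of the endoplasmic reticulum (ER) and the integrated stress response when folding is overloaded or amino acids are short. Islet preparations hold the endocrine cells, but also vessels, stromal cells, infiltrating cells and some acinar and duct tissue. The measurements were made on whole preparations, in which fewer cells of a type and less RNA per cell cannot be told apart.

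Values below are log2 ratios of NOD over pool, and a difference is the mean ratio of the 6 mice at 12 weeks minus that of the 6 mice at 4 weeks. Calls required a difference of at least 2-fold and an adjusted p under 0.05 in limma, with Benjamini-Hochberg adjustment over all genes tested. The SE and p of a difference rest on the spread between arrays of the same age. They leave out the spread between pools, because each age had 1 pool. Insulin 1 and 2 (Ins1, Ins2), glucagon (Gcg), somatostatin (Sst), pancreatic polypeptide (Ppy), Chga and Pcsk2 were well above background in both channels on all 12 arrays. So were the acinar genes Amy2a5, Pnlip and Ctrb1, the duct genes Krt19, Krt7 and Sox9 and the vessel genes Pecam1 and Cdh5. Adipoq, of fat cells, was above background in NOD on 1 array at 4 weeks and on 0 at 12 weeks. Between 50.7% and 62.1% of probes were above background in the NOD channel. The pool channel had 52.8% to 59.8% at 4 weeks but 39.4% to 43.6% at 12 weeks. No slide held arrays of both ages, so slide and age cannot be told apart. Ratios of mice of 1 age correlated at a median of 0.74 at 4 weeks and 0.807 at 12 weeks. The lowest value, 0.324, lay at 4 weeks, where mouse 5 stood apart from the others in many of the genes described below.

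Directions are relative to the middle of the genes on an array, which the loess normalization places near 0: the median difference over all genes was 0.04. Without loess, with each array centred on its median, it was 0.73, and with the scanner software's own signals 0.09. Probes for 10 spike-in transcripts gave a mean ratio of 0.48 to 1.67 on the 4 week arrays and of -0.37 to 0.17 on the 12 week arrays, a difference of -1.09. The sources used here do not state that equal amounts were added to both RNAs. Centred on these probes after loess, the median difference over all genes was 1.12. Of the 556 genes called lower, 93 then had a positive difference, as did 173 under median centring and 0 with the scanner signals. Of the 538 called higher, 0 turned negative under any of these 3 settings. With spike-in centring this was fixed in advance, because it raised every difference by about the same amount. Median centring also moved the middle of the genes upward. Neither centring therefore shows that the higher calls are the more robust. Of the genes each setting called, 99.6% were higher with either centring and 60.2% with the scanner signals, against 49.2% after loess. Median centring called 7078 of all 18085 genes higher and 25 lower, and the scanner signals 2623 and 1735. With both channels above background on all 12 arrays, 440 of 11502 genes were called higher and 526 lower. List counts under these settings, given below, are to be read beside these totals.

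**Figure D1:**
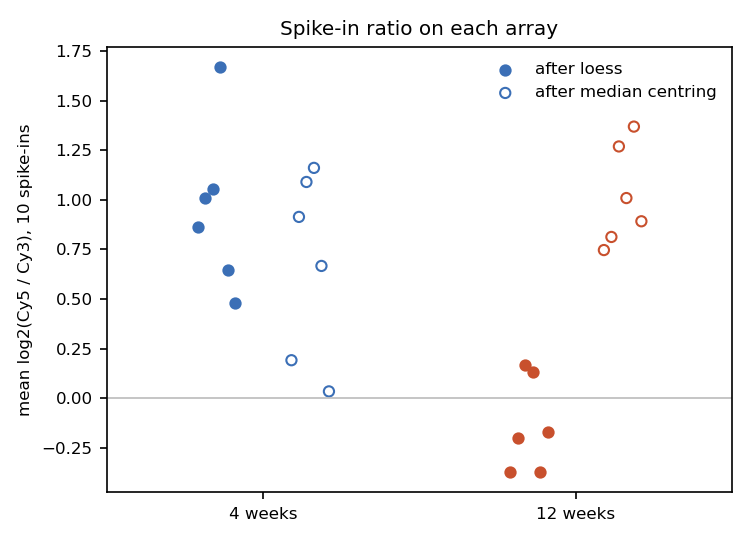
Mean log2 ratio of NOD over pool over 10 spike-in transcripts, 1 point per array at 4 and at 12 weeks, after loess (filled) and after median centring without loess (open). After loess the 12 week arrays lie between -0.37 and 0.17, below the 4 week arrays, which lie between 0.48 and 1.67, while under median centring the ages overlap.

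Of the 18085 genes, 1094 (6.05%) were called. Of these, 538 (2.97%) were higher and 556 (3.07%) lower at 12 than at 4 weeks. The 6 mice of one age did not overlap the 6 of the other in 4571 genes (25.3%), which included 494 of the genes called higher and 441 of those called lower. Most genes called higher crossed from below the control level to above it: 109 had a mean ratio above 0 at 4 weeks and 523 had one at 12 weeks. For the genes called lower the order was the reverse, with 502 above 0 at 4 weeks and 84 at 12 weeks. Of all 18085 genes, 8845 were above 0 at 4 weeks and 10107 at 12 weeks. Both sets were chosen by the difference between the ages, which favours such a crossing, and the side of 0 depends on the centring. Without 4 week mouse 5, 623 genes (3.44%) were called higher and 656 (3.63%) lower. The 20 week mice, which the contrast did not compare, differed in how they stood to these sets. Of the genes called higher, 293 were called above the pool at 20 weeks (3.87% of all genes were) and 11 below it (1.23% of all genes). Of the genes called lower, 13 were called above and 15 below the pool at 20 weeks, and their median ratio there was 0.005. At 10 days, 14 and 12 genes of the 2 sets were called above the pool (1.61% of all genes) and 41 and 46 below it (2.36% of all genes).

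The NOD channel and the pool channel did not contribute alike to the 2 directions. On the scale of each channel's own log2 intensity after scaling between arrays, which has no test because each pool is 1 sample, the genes called higher had a median change from 4 to 12 weeks of 1.66 in NOD and of 0.34 in the pool. The NOD change was the larger in 434 of these 538 genes. The genes called lower had a median change of -0.71 in NOD and of 0.69 in the pool, and the NOD change was the larger in 285 of 556. All genes tested had medians of -0.06 in both channels. Genes that were well above background in both channels on all 12 arrays numbered 440 of the higher and 522 of the lower set.

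**Figure D2:**
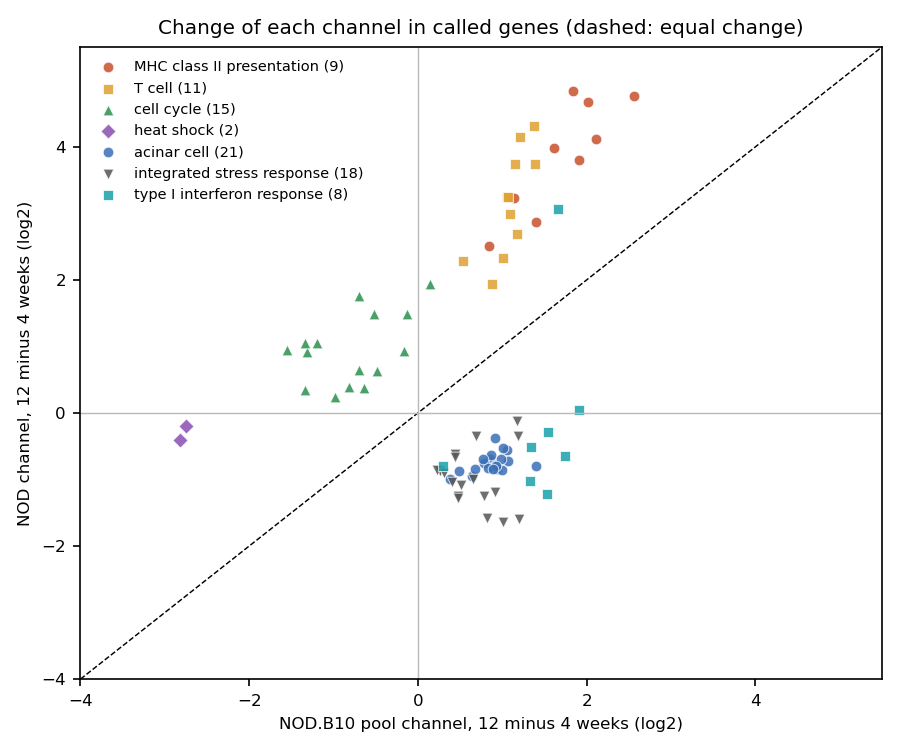
Change of log2 intensity from 4 to 12 weeks in the pool channel (horizontal axis) and in the NOD channel (vertical axis), 1 point per called gene of 7 gene lists, with a dashed line where the changes are equal. Hspa1a and Hspa1b lie far to the left, at -2.75 and -2.82 in the pool, with NOD changes near 0.

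The largest differences upward belonged to genes of lymphoid tissue. Glycam1, a ligand for L-selectin on the high endothelial venules through which lymphocytes enter lymph nodes, had ratios of -3.88, -3.34 and -1.60 (lowest, median and highest of 6 mice) at 4 weeks and of 0.44, 1.45 and 3.17 at 12 weeks. Every 4 week mouse was below its control pool and every 12 week mouse above it. Its difference was 4.69 ± 0.72 (SE; adjusted p = 5.176e-05, limma), a 25.8-fold shift, and the mean ratio at 20 weeks was 3.01 ± 1.35 (SD, n = 6). Ccl19 (mm9 probe at chr4:42250432-42250491), which attracts T cells and mature dendritic cells through the receptor Ccr7, had ratios of -1.72, -0.57 and 0.55 at 4 weeks and of 3.73, 3.85 and 4.51 at 12 weeks. The ages did not overlap, and the 12 week mice lay close together. The difference was 4.64 ± 0.70 (SE; adjusted p = 4.47e-05), and the channel changes were larger in NOD than in the pool, where Ccl19 moved by 0.77. Ccr7 itself rose by 1.65 (adjusted p = 0.0003115), and Itgb7, the integrin chain of gut-homing lymphocytes, by 3.16 (adjusted p = 0.0001643).

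Of the 20 tested genes listed for lymphoid tissue organisation, 7 were called higher: Ccl19, Ccl21a, Ccr7, Ltb, Glycam1, Itgb7 and Tnfrsf13c, the receptor for the B cell survival factor BAFF. Icam1, an adhesion molecule, was the 1 called lower, at -1.68. The list's median difference was 0.51, against 0.04 for all genes. With both channels above background on all 12 arrays, 8 of the 20 were left, 4 called higher and 1 lower, while the scanner signals gave 13 and 1. Cxcl13, which draws B cells into follicles, was at -0.23 and its receptor Cxcr5 at 0.57, neither called. Madcam1, the vessel ligand of Itgb7, was at 0.44 and was well above background in the pool on 0 of 6 arrays at 12 weeks.

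T cell genes were higher at 12 weeks in part of the list. Cd3d, a chain of the CD3 complex (mm9 chr9:44794171-44794402), had ratios of -0.59, -0.42 and 0.11 at 4 weeks and of 1.85, 2.54 and 3.32 at 12 weeks. The highest 4 week value was that of mouse 5, and it too lay below every 12 week mouse. The difference was 2.95 ± 0.49 (SE; adjusted p = 0.0001161). In NOD at 4 weeks Cd3d was well above background on 1 of 6 arrays, so its level there was near the detection limit. Of the 27 T cell genes tested, 11 were called higher and 0 lower: Cd3d, Cd3g, Cd247, Lck, Lat, Cd5, Cd6, Icos, Cd8a, Thy1 and Ms4a4b. Cd8a, the coreceptor of cytotoxic T cells, had no measured ratio at 4 weeks, where it was well above background on 1 of 6 arrays in NOD and on 0 in the pool. At 12 weeks it was above background on 6 arrays in NOD and on 3 in the pool, with a median ratio of 1.43. Cd3e and Cd4 were under the 2-fold floor and were not called, with differences of -0.42 and -0.22. Both stayed negative in the fits that each left out 1 array, with adjusted p of at most 0.04441 and 0.01307 (limma). The difference of Cd3e turned to 0.29 under median centring, and both turned positive with spike-in centring after loess. Foxp3, the factor of regulatory T cells, was at 0.12. The list's median difference was 0.91. With the scanner signals it was 3.12, and 22 genes were called higher and 2 lower. Where both channels had to be well above background on all 12 arrays, 4 of the 27 genes were left and 3 were called higher. The list's mean ratio lay between -0.02 and 0.19 in the 4 week mice and between 0.82 and 1.58 in the 12 week mice. A 2nd probe of Thy1 differed by 0.38 where the reported one differed by 1.75.

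Of 16 cytotoxic and natural killer genes, 6 were called higher and 0 lower. Only 1 of the 16 was well above background in both channels on all 12 arrays, and with that required 0 were called, while 15 were called higher with the scanner signals. At 4 weeks Il2rb was above background in NOD on 4, Nkg7 on 5 and Ifng on 2 of 6 arrays, so their ratios there were near the detection limit. Il2rb, the shared receptor chain for interleukins 2 and 15, had ratios of -0.78, -0.49 and -0.14 at 4 weeks and of 1.47, 1.90 and 2.74 at 12 weeks. No 4 week mouse reached the control pool and every 12 week mouse exceeded it. The difference was 2.48 ± 0.30 (SE; adjusted p = 3.924e-06). Interferon gamma (Ifng), the macrophage-activating cytokine of these cells, rose by 2.35 ± 0.40 (adjusted p = 0.0001359), and the granule protein gene Nkg7 by 2.40 ± 0.30 (adjusted p = 7.894e-06). Granzyme B (Gzmb) and perforin (Prf1), which carry out killing, were at 0.42 and 0.02 and were not called.

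In B cell genes 1 of the 4 week mice lay far from the rest. The immunoglobulin heavy chain gene Ighm had ratios of -1.36, -0.84 and 2.69 at 4 weeks and of 2.01, 2.70 and 3.70 at 12 weeks. The ages overlapped through 4 week mouse 5 alone, at 2.69; the next highest 4 week mouse was at -0.75. The difference was 3.04 ± 0.75 (SE; adjusted p = 0.003212) with all mice and 3.65 ± 0.68 without mouse 5. Pou2af1, a coactivator of immunoglobulin genes, rose by 2.53 (adjusted p = 0.0005947) and Cd79b, a signalling chain of the B cell receptor, by 2.05 (adjusted p = 0.01365); mouse 5 was the highest 4 week mouse in both, at 1.67 and 2.06. Of 18 B cell genes tested, 5 were called higher and 0 lower, and 8 were called higher without 4 week mouse 5 or without 12 week mouse 2. Of the 18, 3 were well above background in both channels on all 12 arrays, and 2 of these were called, while 14 were called with the scanner signals. The plasma cell list had 1 gene called higher and 2 lower of 8. Its higher member, the antibody joining chain Jchain (1.22, adjusted p = 0.04487), lost its call in 9 of the 12 fits that each left out 1 array. The lower members were Sdc1, which epithelial cells also express, and Derl3, an ER degradation gene.

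**Figure D3:**
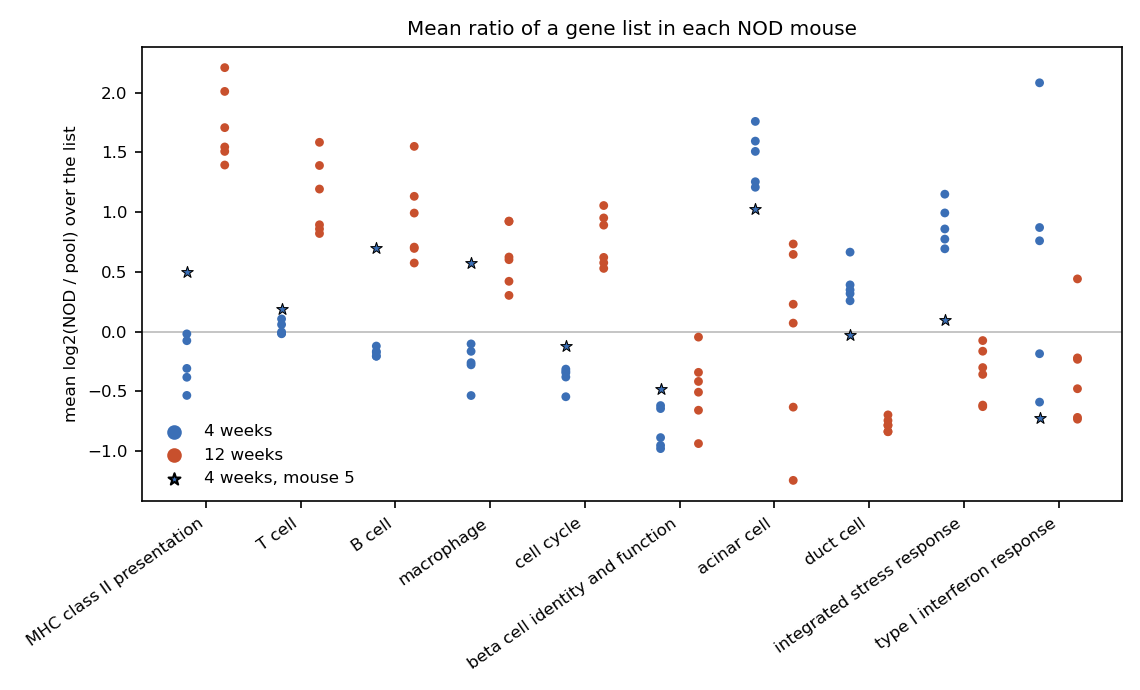
Mean log2 ratio over the genes of each of 10 lists, 1 point per mouse at 4 and at 12 weeks, with 4 week mouse 5 drawn as a star. In the B cell list the star lies at 0.70, while the other 4 week mice lie below 0, and in the integrated stress response list it is the lowest 4 week mouse, at 0.10.

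Genes of MHC class II and class I presentation were higher at 12 weeks in most of their lists, and macrophage genes in part of theirs. H2-Ab1, the beta chain of the MHC class II molecule I-A (mm9 chr17:34406059-34406118), had ratios of -0.44, 0.31 and 1.21 at 4 weeks and of 2.62, 2.98 and 3.18 at 12 weeks. The ages did not overlap, and the 4 week mice were the more spread. The difference was 2.65 ± 0.43 (SE; adjusted p = 9.915e-05), with changes of 4.67 in NOD and 2.02 in the pool. Of 11 class II genes, 9 were called higher and 0 lower: H2-Aa, H2-Ab1, H2-Eb1, H2-Oa, H2-DMa, H2-DMb1, the class II transactivator Ciita, the invariant chain Cd74 and cathepsin S (Ctss), which trims that chain. Cd74 rose by 2.99 (adjusted p = 3.784e-05). A 2nd probe of H2-Aa differed by 0.36 where the reported probe differed by 2.01. In the promoter windows searched as described below, 6 of the 9 called genes had an entry. Of these, 5 held CCAAT, which is in 37.4% of all windows. Only 1, H2-Aa, held TGACG, the core of the X2 box of class II promoters, which is in 20.8% of all windows. The strains differ by design in their MHC alleles, and whether the probes bind the alleles equally was not tested.

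For MHC class I, 10 of 18 genes were called higher and 0 lower, with a list median of 1.14. They included the light chain B2m (1.55, adjusted p = 0.0008467), H2-K1 (1.66, adjusted p = 0.000835) and the immunoproteasome subunit Psmb8 (1.78, adjusted p = 0.0005397). H2-K1 stood below the pool in all 4 week mice, from -1.82 to -0.53. The peptide transporter genes Tap1 and Tap2, at 0.43 and 0.51, were not called. Under median centring 16 of the 18 were called higher, as were 7078 of all 18085 genes.

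Of 22 macrophage genes, 10 were called higher, and Cd14, the receptor for bacterial lipopolysaccharide, was called lower at -1.93. The complement component C1qc had ratios of -0.59, -0.35 and 0.39 at 4 weeks and of 1.34, 1.72 and 2.18 at 12 weeks. Mouse 5 held the highest 4 week value, and no mouse of one age reached the other. The difference was 1.99 ± 0.25 (SE; adjusted p = 6.118e-06). Aif1 rose by 1.96 (adjusted p = 0.0001873). The general macrophage markers Cd68, Adgre1 and Csf1r were at 0.51, 0.77 and 0.82 and were not called. Under median centring 16 of the 22 were called higher and 0 lower. Of 13 dendritic cell genes, 4 were called higher and 0 lower: Wdfy4, which serves cross-presentation, at 3.24 (adjusted p = 0.00011), Irf8, Ccr7 and Itgax. Itgax had a 2nd probe at 0.03 beside the reported 1.90. Complement C3 was among the highest genes at 3.35 (adjusted p = 0.0002811), but a 2nd probe gave 0.14. Of 8 neutrophil genes, 1 was called higher, the decoy receptor Il1r2 (adjusted p = 0.003413), and 2 without 4 week mouse 5.

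**Figure D4:**
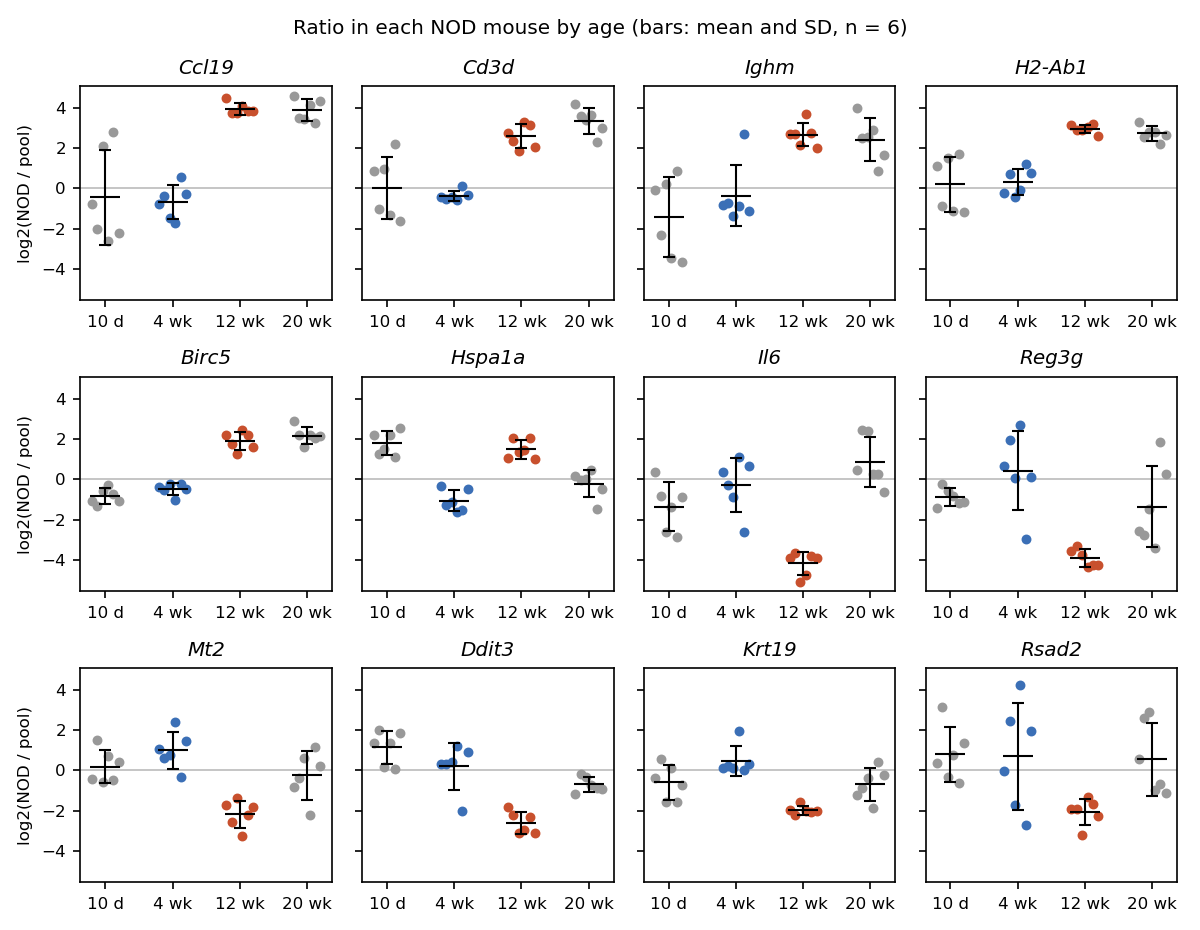
Log2 ratio of NOD over pool in each mouse at 10 days, 4, 12 and 20 weeks for 12 genes, with the mean and SD of the 6 mice of each age. Ccl19, Cd3d, H2-Ab1 and Birc5 are higher in every 12 week than in any 4 week mouse, while Il6, Reg3g, Mt2 and Krt19 are lower.

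Of 32 cell cycle genes, 15 were called higher at 12 weeks and 0 lower. Birc5, the survivin of dividing cells (mm9 chr11:117716959-117717018), had ratios of -1.03, -0.44 and -0.23 at 4 weeks and of 1.27, 1.97 and 2.42 at 12 weeks. All 4 week mice were below the pool and all 12 week mice above it. The difference was 2.39 ± 0.21 (SE; adjusted p = 1.512e-07), from changes of 1.05 in NOD and -1.33 in the pool. The same pattern on both sides of 0 held for Mki67 at 2.23 ± 0.22 (adjusted p = 3.709e-07) and for the mitotic activator Cdc20 at 2.50 ± 0.26 (adjusted p = 8.434e-07). A 2nd probe of Mki67 differed by 0.96. The called genes included Mcm3, Mcm5, Mcm6 and Mcm7 of the DNA replication helicase. With the scanner signals 28 were called higher, and with both channels above background on all 12 arrays 12 of the 19 genes left. Top2a, at 0.44, and Cdk1, at 0.56, were not called. The list's mean ratio was -0.54 to -0.12 at 4 weeks and 0.53 to 1.05 at 12 weeks, and its median change was 0.50 in NOD and -0.42 in the pool. T cell genes, with list mean ratios of 0.82 to 1.58 at 12 weeks, moved the same way, and their part in the cell cycle values was not tested.

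Inflammatory cytokines and chemokines were called in both directions, a split that depended on the centring. Interleukin 6 (Il6, mm9 chr5:30346362-30346421), which drives the acute phase response, had ratios of -2.61, 0.04 and 1.12 at 4 weeks and of -5.08, -3.88 and -3.65 at 12 weeks. The ages did not overlap, and all 12 week mice lay far below the pool. Its difference was -3.90 ± 0.62 (SE; adjusted p = 7.573e-05). The channels moved apart, with changes of 2.27 in the pool and -1.63 in NOD, and at 20 weeks the mean ratio was 0.86 ± 1.26 (SD, n = 6). The monocyte chemokine Ccl2 had ratios of -1.70, 0.91 and 2.56 at 4 weeks and of -3.08, -2.15 and -1.62 at 12 weeks. Mouse 5 was the lowest 4 week mouse and overlapped the 12 week range. Ccl2 fell by 2.88 ± 0.62 (SE; adjusted p = 0.001143) and Ccl7, which acts on the same receptor, by 2.50 ± 0.49 (adjusted p = 0.0005226). In the pool both were higher at 12 weeks, by 2.04 and 1.90.

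Among 26 chemokines and receptors, 3 were called higher and 4 lower, with a list median of 0.18. Under median centring 13 were called higher and 0 lower, with the scanner signals 7 and 8, and with both channels above background on all 12 arrays 0 and 4. The higher ones were Ccl8 at 2.45 (adjusted p = 4.054e-06), Cxcl9 at 1.95 (adjusted p = 0.0006541) and Cxcr3, through which T cells sense Cxcl9, at 2.36. The lower ones were Ccl2, Ccl7, the eosinophil chemokine Ccl11 and the neutrophil chemokine Cxcl1 at -2.07. Of 25 inflammatory genes, Tnfaip3, which restrains NF-kappaB, was called higher at 1.36. Il6, the growth factors Csf1 and Csf3 and the receptor Osmr were called lower, and 2 were called lower without 4 week mouse 4. Under median centring 5 were called higher and 1 lower. Il1b (0.94) and Tnf (0.54) were not called. In the promoter windows described below, the kappaB site was found in 2 of the 3 lower genes that the promoter table holds, Il6 and Csf1. The 1 gene called higher, Tnfaip3, held it too, as did 4.51% of all windows. A 2nd probe of Osmr differed by -0.12, and the reported -1.28 turned to 0.06 under median centring.

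The interferon lists also had calls in both directions. Among 24 genes that interferon gamma induces, 7 were called higher and 1, Icam1, lower. Among these calls, Ciita, Psmb8, Psmb9, Cxcl9 and Icam1 were already counted in lists above. Without 4 week mouse 3, 2 of the 24 were called lower, and 3 without 4 week mouse 5. Under median centring 15 were called higher and 0 lower. Ubd, a ubiquitin-like modifier, had ratios of -1.14, -0.75 and 0.19 at 4 weeks and of 1.77, 2.06 and 3.03 at 12 weeks. The ages did not overlap, and the difference was 2.85 ± 0.42 (SE; adjusted p = 3.672e-05). Cxcl10, which both interferon types induce, was at -1.48 (adjusted p = 0.08094), turned to 0.002 under median centring and spread from -2.16 to 2.51 in the 4 week mice; it was called lower without 4 week mouse 3 or without 4 week mouse 5.

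Of 25 genes of the type I interferon response, Zbp1, a sensor of viral nucleic acid, was called higher at 1.40. Rsad2, Ifit1, Ifit3, Mx2, Oasl1, Cmpk2 and Rtp4, antiviral effectors or enzymes, were called lower. Rsad2 (viperin) spanned the widest range at 4 weeks, with ratios of -2.73, 0.97 and 4.25, against -3.21, -1.91 and -1.34 at 12 weeks. Mice 2, 4 and 6 were high at 4 weeks, at 2.43, 4.25 and 1.96, while mice 3 and 5 lay within the 12 week range. The difference was -2.75 ± 0.96 (SE; adjusted p = 0.02664), and the call was lost without 4 week mouse 2, 4 or 6 or 12 week mouse 3. The mean ratio over the list was 2.08 in 4 week mouse 4 and -0.72 in 4 week mouse 5, and -0.73 to 0.44 at 12 weeks. Under median centring 4 of the 25 were called higher and 0 lower, against 7078 and 25 of all 18085 genes. Only 1 of the 25 was called lower without 4 week mouse 4, and 3 without 4 week mouse 2, 4 week mouse 6 or 12 week mouse 3. The list's ages did not separate in any member: 0 of 25 genes had mice that did not overlap, against 25.3% of all genes.

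Promoter windows of the called genes of 6 lists were searched on both strands for 8 short motifs, over 300 bases, from 250 before to 50 after the start of each gene; the sequences are RefSeq's on GRCm38.p6. The core of the interferon stimulated element, TTTCNNTTT, was in the windows of 4 of the 5 lower type I interferon genes that the table holds (Ifit1, Ifit3, Oasl1 and Rsad2). It was in 10.6% of all 32851 windows. The core was not particular to genes called lower: 3 of the 6 class II genes with a window, all called higher, held it (Ctss, H2-DMa and H2-Oa). So did 1 of 14 lower genes of the integrated stress response. The 200 bases before the start of Rsad2 (chr12:26456453-26456652, minus strand, written 5′ to 3′) are shown because this gene had the largest difference of the list and holds 2 matches, which are in capitals.
Rsad2 promoter: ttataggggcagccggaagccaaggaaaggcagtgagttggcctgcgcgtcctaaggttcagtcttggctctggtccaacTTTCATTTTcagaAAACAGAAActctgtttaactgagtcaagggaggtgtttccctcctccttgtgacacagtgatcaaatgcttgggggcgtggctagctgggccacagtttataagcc

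The integrated stress response was the stress list with the most calls. Its transcription factor Ddit3 (CHOP; mm9 chr10:126732518-126732821) had ratios of -2.02, 0.36 and 1.22 at 4 weeks and of -3.12, -2.65 and -1.81 at 12 weeks. The ages overlapped through 4 week mouse 5, at -2.02, and the other 5 mice lay at 0.33 or above. Ddit3 fell by 2.79 ± 0.43 (SE; adjusted p = 5.35e-05), or by 3.23 without mouse 5. Trib3, which it induces and which restrains Akt, fell by 2.64 (adjusted p = 0.0004261), and Chac1, a glutathione-degrading enzyme, by 2.40 (adjusted p = 0.009047). The serine synthesis gene Psat1 fell by 1.45 (adjusted p = 0.004498), but stayed above the pool, with a mean ratio of 1.96 at 4 weeks and 0.52 at 12 weeks. Of 35 genes, 18 were called lower and 0 higher, and 16 to 19 were called lower when 1 array was left out. They included the asparagine and serine synthesis enzymes Asns, Phgdh and Psph, the amino acid transporters Slc7a1 and Slc7a3, the translation regulator Eif4ebp1 and the factors Atf3 and Cebpb. Atf4, the central factor of the response, was at -0.72 and was not called. Under median centring 2 of the 35 were called lower and 4 higher. The list's median was -1.05 (all genes 0.04), with -0.67 in NOD and 0.44 in the pool. It turned to 0.11 under median centring, where all genes were at 0.73, and to 0.04 with spike-in centring, where they were at 1.12; relative to all genes it was -1.09 after loess, which spike-in centring cannot change, and -0.62 under median centring.

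The composite element bound by C/EBP and ATF factors, searched as TGATGNAAN, was in the windows of 5 of the 14 lower genes of this list that the table holds (Asns, Atf3, Chac1, Nupr1 and Trib3). It was in 3.95% of all windows, and also in that of Tnfaip3, which was called higher. Of the same 14, 9 held CCAAT, which is in 37.4% of all windows, 9 held the metal response core TGCNCNC (51.0% of all) and 7 held TGACG (20.8% of all). The 200 bases before the start of 3 of the 5 genes are shown with the element in capitals, so that its place and strand can be compared. They lie at chr6:7693210-7693409 (Asns), chr1:191183334-191183533 (Atf3) and chr7:126625471-126625670 (Nupr1), all on the minus strand and written 5′ to 3′ along the gene; the letters of Atf3 and Nupr1 match on the opposite strand.
Asns promoter: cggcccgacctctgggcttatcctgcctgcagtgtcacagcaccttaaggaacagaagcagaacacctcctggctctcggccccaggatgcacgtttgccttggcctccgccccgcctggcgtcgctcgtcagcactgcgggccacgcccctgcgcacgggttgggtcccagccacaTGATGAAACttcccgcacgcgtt
Atf3 promoter: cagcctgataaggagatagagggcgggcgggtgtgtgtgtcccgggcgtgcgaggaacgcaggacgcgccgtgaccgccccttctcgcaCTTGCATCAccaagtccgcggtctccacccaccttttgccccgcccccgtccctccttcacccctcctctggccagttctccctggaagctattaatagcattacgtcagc
Nupr1 promoter: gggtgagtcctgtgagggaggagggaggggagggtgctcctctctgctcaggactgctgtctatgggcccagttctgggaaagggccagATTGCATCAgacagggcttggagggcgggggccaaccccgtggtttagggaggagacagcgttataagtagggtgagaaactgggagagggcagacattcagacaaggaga

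Chaperones of the ER fell in a smaller part of their list, which held the smallest adjusted p-values among the genes named here, those of Hsp90b1 and Creld2. Creld2, which stress of the ER induces, had ratios of 0.73, 1.14 and 1.53 at 4 weeks and of -1.47, -1.16 and -0.77 at 12 weeks. Every 4 week mouse was above the pool and every 12 week mouse below it. Creld2 fell by 2.30 ± 0.18 (SE; adjusted p = 3.058e-08), and the change was -2.10 in NOD and 0.19 in the pool. Hsp90b1 (GRP94) fell by 1.89 ± 0.12 (adjusted p = 2.31e-09), although another probe differed by only -0.38, and Hspa5 (BiP), the main ER chaperone, fell by 1.49 ± 0.16 (adjusted p = 1.195e-06). Of 25 genes, 7 were called lower and 0 higher: Hspa5, Hsp90b1, Pdia4, Creld2, Manf, Herpud1 and Derl3. The same count came from the scanner signals, but under median centring 8 were called higher and 0 lower, against 7078 and 25 of all 18085 genes. Xbp1, at -0.92, Calr, at -0.70, and Hyou1, at -0.37, were not called. The list median was -0.64 and turned to 0.73 under median centring, which equals that of all genes there. Acinar genes, 21 of 31 of which were called lower, moved the same way, with list mean ratios of 1.02 to 1.76 at 4 weeks and of -1.25 to 0.73 at 12 weeks; their part in the ER values was not tested.

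The metallothioneins, which bind zinc, fell together. Mt2 (mm9 chr8:96697371-96697430) had ratios of -0.35, 0.92 and 2.42 at 4 weeks and of -3.28, -2.03 and -1.40 at 12 weeks, and the ages did not overlap. It fell by 3.17 ± 0.51 (SE; adjusted p = 7.706e-05) and Mt1 by 3.06 ± 0.44 (adjusted p = 2.931e-05). NOD and pool moved in opposite ways by nearly the same amount, with -1.65 and 1.52 for Mt2. Mt1 and Mt2 are close in sequence, and their probes may share signal. Heme oxygenase 1 (Hmox1) fell by 1.42 (adjusted p = 0.001537) and the autophagy receptor Sqstm1 was also called lower, 4 of 21 genes in all; under median centring 2 were called lower and 10 higher. The core of the metal response element, TGCNCNC, was in the windows of Mt1 and Mt2, as in 51.0% of all windows. Mt2 held 4 matches and Mt1 held 1 in the 200 bases before the start. Elsewhere in the windows, Mt1 had matches beginning at base 2 and base 20 from the start, and Mt2 at base -223 and base 4. The 200 bases are shown, at chr8:94178889-94179088 and chr8:94172418-94172617 on the plus strand with the matches in capitals, to set the pair side by side.
Mt1 promoter: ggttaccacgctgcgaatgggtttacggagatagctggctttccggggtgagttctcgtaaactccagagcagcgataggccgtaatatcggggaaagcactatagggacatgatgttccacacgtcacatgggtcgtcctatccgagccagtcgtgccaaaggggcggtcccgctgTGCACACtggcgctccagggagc
Mt2 promoter: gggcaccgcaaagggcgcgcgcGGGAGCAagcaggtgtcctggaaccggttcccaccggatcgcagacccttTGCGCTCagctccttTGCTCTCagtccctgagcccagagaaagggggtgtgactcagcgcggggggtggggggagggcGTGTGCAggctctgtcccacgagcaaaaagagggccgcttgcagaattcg

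The inducible heat shock proteins went the other way. Hspa1a (mm9 chr17:35106766-35106825) had ratios of -1.60, -1.19 and -0.33 at 4 weeks and of 1.01, 1.40 and 2.07 at 12 weeks. All 4 week mice were below the pool and all 12 week mice above it, with a difference of 2.56 ± 0.31 (SE; adjusted p = 5.5e-06). Hspa1b, whose sequence is nearly identical, so that the probes may share signal, differed by 2.41 ± 0.25 (adjusted p = 7.623e-07). The NOD channel changed by only -0.20 and -0.41 in these genes, while the pool channel changed by -2.75 and -2.82, so the ratio moved with the 2 pools. The adjusted p-values of the pair do not cover the spread between pools. The other 13 of the 15 heat shock genes were not called, and the list median was 0.01, but 12 of the 15 were called higher under median centring. The paired heat shock element, GAANNTTC, was in the windows of both genes and in 7.86% of all windows. Ctss and H2-Aa, called higher, and Asns, called lower, also held this element. The element is in capitals in the 200 bases before the start of Hspa1a (chr17:34972157-34972356, minus strand, 5′ to 3′), shown because Hspa1a and Hspa1b are the list's only calls.
Hspa1a promoter: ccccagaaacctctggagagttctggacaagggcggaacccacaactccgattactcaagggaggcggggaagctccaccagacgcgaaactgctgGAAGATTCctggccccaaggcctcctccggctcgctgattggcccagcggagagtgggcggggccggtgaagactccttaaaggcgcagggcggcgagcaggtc

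Immediate early genes, which respond within minutes to handling, were called in both directions, 4 of 25 higher and 6 lower. Fos rose by 1.60 (adjusted p = 0.01903) and Dusp2 by 2.03 (adjusted p = 0.0004604), while Maff fell by 1.82 (adjusted p = 0.00187) and Myc was at -1.55. Without 4 week mouse 4, 1 was called higher and Fos was not. Under median centring 12 were called higher and 0 lower.

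Of 31 acinar genes, 21 were called lower at 12 weeks and 0 higher, a count that depended on single mice and on the normalization. Ctrc, a digestive chymotrypsin (mm9 chr4:141394627-141394686), had ratios of 1.44, 1.73 and 2.23 at 4 weeks and of -1.34, -0.15 and 0.76 at 12 weeks. The ages did not overlap, and the 12 week mice lay on both sides of 0. Ctrc fell by 1.85 ± 0.54 (SE; adjusted p = 0.009134), and the trypsin inhibitor Spink1 fell by 2.20 ± 0.59 (adjusted p = 0.00558). The called genes included enzymes (Pnlip, Cel, Ctrb1, Prss2, Cpa1) and transcription factors (Ptf1a, Nr5a2). Digestive enzymes of 1 family are close in sequence, and their probes may share signal. Amy2a5, an amylase, was at -0.83 (adjusted p = 0.2464) and turned to 0.55 under median centring. The count fell to 7 without 12 week mouse 2, whose list mean ratio was the lowest at -1.25, and to 10 without 12 week mouse 4, at -0.63. It was 5 with the scanner signals and 0 under median centring, where 1 gene was called higher and the list median was -0.15.

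The Reg genes, secreted proteins of the inflamed or regenerating pancreas, held the largest difference downward. Reg3g (mm9 chr6:78416420-78416479) had ratios of -2.96, 0.40 and 2.68 at 4 weeks and of -4.33, -3.99 and -3.28 at 12 weeks. The ages did not overlap, but 4 week mouse 5 was near the 12 week mice. Reg3g fell by 4.32 ± 0.78 (SE; adjusted p = 0.000258), with -3.36 in NOD and 0.96 in the pool. Reg3b fell by 3.25 ± 0.90 (adjusted p = 0.006785); its 4 week mice 3 and 5, at -3.08 and -3.56, lay among the 12 week mice, which ran from -3.89 to -1.61. Of 6 Reg genes, Reg1, Reg3b, Reg3d and Reg3g were called lower, and all 6 were without 4 week mouse 5. Under median centring 1 was called lower.

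Duct and epithelial genes fell in 9 of 23 members, and 0 were called higher. Keratin 19 (Krt19, mm9 chr11:100002392-100002451) had ratios of 0.02, 0.17 and 1.96 at 4 weeks and of -2.22, -2.02 and -1.59 at 12 weeks. Mouse 4 was the high 4 week mouse, and all 12 week mice lay below the pool. Krt19 fell by 2.44 ± 0.39 (SE; adjusted p = 7.28e-05), Krt8 by 2.70 ± 0.52 (adjusted p = 0.0004318) and the tight junction gene Cldn4 by 2.67 ± 0.63 (adjusted p = 0.002321). Sox9, the duct transcription factor, was called at -1.71, but Krt7 (0.47) was not called. Tnfrsf12a, the receptor for TWEAK, fell by 2.75 (adjusted p = 0.0001823). Under median centring 3 were called lower and 2 higher, and with the scanner signals 14 lower. The list median was -0.83, or -0.25 under median centring, and turned to 0.26 with spike-in centring.

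The mean ratio over beta cell genes was below 0 in every mouse, from -0.98 to -0.48 at 4 weeks and from -0.94 to -0.05 at 12 weeks, and no gene of the list was called in the comparison. Ins1 had ratios of -2.31, -1.43 and -1.11 at 4 weeks and of -1.33, -1.11 and -0.43 at 12 weeks. Both ages lay wholly below 0 and overlapped, and the difference was 0.44 ± 0.55 (SE; adjusted p = 0.5485). Ins2 was at -0.52 ± 0.46 (adjusted p = 0.3768), and turned to 0.83 under median centring and to 0.47 with the scanner signals. The maturity factor Mafa was at 0.64 (adjusted p = 0.002882) and Pdx1 at 0.43 (adjusted p = 0.02132), under the 2-fold floor. Of 28 beta cell genes, 0 were called in either direction by limma. Of these, 14 had an unadjusted p under 0.05, 12 of them upward, against 9075 of all 18085 genes in either direction. The list median was 0.35. With the scanner signals 1 was called in each direction, and under median centring 18 were called higher. The secretory granule list had 2 of 23 called higher, the prohormone convertase Pcsk1 at 1.11 (adjusted p = 0.002381) and Rab3a at 1.13 (adjusted p = 0.002403). In both genes the pool changed more than NOD, by -1.31 and -1.16 against -0.21 and -0.03. Under median centring 17 of the 23 were called higher.

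Of 17 genes of the other islet hormones, 4 were called higher and 1 lower, and 2 were called higher without 4 week mouse 1 or 2 or 12 week mouse 5. With the scanner signals 7 were called higher and 4 lower, and under median centring 9 and 0. Prodynorphin (Pdyn), an opioid peptide precursor, had ratios of -3.30, -2.80 and -1.95 at 4 weeks and of -1.02, -0.22 and 0.25 at 12 weeks. The 4 week mice were all far below the pool, and the ages did not overlap. The difference was 2.37 ± 0.32 (SE; adjusted p = 1.511e-05), from 1.27 in NOD and -1.10 in the pool. Ppy was at 1.54 (adjusted p = 0.04985), a call that was lost in 9 of the 12 fits without 1 array, and the alpha cell factor Irx1 was called at 1.09. Gastrin (Gast), a peptide of the fetal islet, fell by 1.23 (adjusted p = 0.0009956). Glucagon was at 0.19 (adjusted p = 0.7225). Somatostatin was at 0.99 (adjusted p = 0.03956), just under the floor, and was called without 4 week mouse 5 or 6 or 12 week mouse 1 or 6.

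Stromal genes were mostly not called. S100a4, a calcium-binding protein of fibroblasts and also of lymphocytes and macrophages, had ratios of -0.62, 0.04 and 0.28 at 4 weeks and of 2.17, 2.88 and 3.66 at 12 weeks, without overlap. It rose by 2.94 ± 0.45 (SE; adjusted p = 4.84e-05). The pericyte receptor Pdgfrb rose by 1.60 (adjusted p = 0.0005021), and Col1a2 and Thy1 were also called higher. The protease inhibitor Timp1 and the growth factor Igf1 were called lower, which made 4 higher and 2 lower of 28 stellate and matrix genes, with a list median of 0.09; under median centring 17 were called higher and 0 lower. Col1a1 was at 0.78 (adjusted p = 0.1053) and Dcn at -0.11. Of 16 endothelial genes, 0 were called by limma, and Pecam1 was at 0.08 (adjusted p = 0.7031). Of the 16, 6 had an unadjusted p under 0.05 (9075 of all 18085 genes had), and 10 were called higher under median centring.

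**Figure D5:**
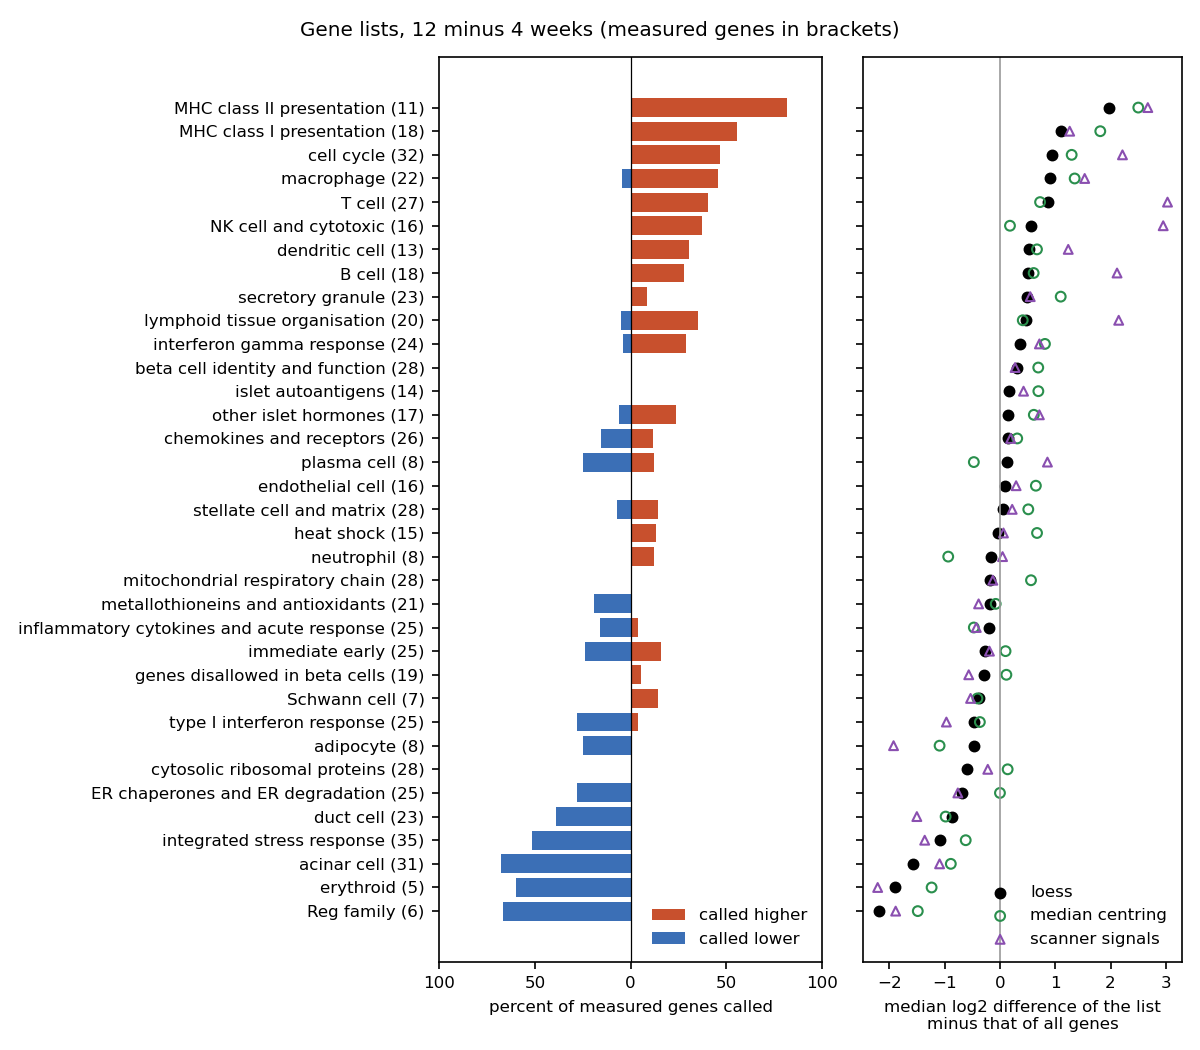
For each gene list, the percent of its tested genes called higher and lower at 12 than at 4 weeks, and the list's median difference minus that of all genes under loess, under median centring and with the scanner signals. Acinar genes lie at -1.56 under loess and at -0.89 under median centring, while ER chaperones lie at -0.68 and at 0.002.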

How the data were processed

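The members and the gene lists were chosen with earlier results of these data known, and no list was tested as a set. Some genes belong to more than 1 list, such as Ctss, Ccr7, Thy1, Derl3 and Atf3, so calls of different lists overlap. The 24 arrays were Agilent 4x44K 2-color arrays. Per the file headers, Feature Extraction 10.7.3.1 gave the mean spot intensity of each channel, its background and flags, and a log10 ratio after its own dye normalization. Probe coordinates are the files' own (mm9). The authors' deposited value table holds log2 ratios that follow that scanner ratio; how its probes were chosen is not given in the sources used here. Of 45018 spots, 1639 were controls. From the intensities, limma 3.58.1 in R 4.3.3 (statmod 1.5.0, data.table version 1.17.8) corrected background (normexp, offset 50) and normalized log2(NOD/pool) by loess within arrays, with controls at weight 0 and spots with outlier flags missing, which left 44 missing ratios. Spots of a probe were averaged. Of 41174 probes, 25931 exceeded background clearly, in either channel, on 6 or more of the 24 arrays. The brightest probe stood for each of 18085 genes. Probes were named by RefSeq accession (27050), current symbol (4154), older symbol (589) or the files alone (9381).

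The model had a mean for each age and took in all 24 arrays (lmFit, eBayes, prior of 2.611 degrees of freedom), with Benjamini-Hochberg adjustment over all genes; 9075 genes had an unadjusted p under 0.05. SDs are over 6 mice. The procedure was tested on simulated data. The number of arrays limits the precision. The text names the 10 highest and 10 lowest called genes without overlap between ages (clone names, gene models and further antigen receptor segments passed over), up to 3 called genes of each of 35 lists (667 genes tested), and 43 fixed genes, with a few genes not reported here; other list members are named to describe a list and were chosen after their values were seen. Replicate numbers name different mice at each age. Deviations of same-numbered mice correlated from -0.224 to 0.266, with 2 of 6 over 0.1 and 0 of 6 mice best correlated with their own number, so the numbers pair no samples. Nothing else in the labels ties arrays together besides the 6 slides. Alternatives covered background, normalization, filters, probes, samples fitted, slide, replicate block and each array left out; spike-in centring, the list counts without 4 week mouse 5 and the promoter search of the type I interferon list were added after seeing the data.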

Additional observations from a re-analysis of the deposited data

Results flagged for a closer look

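In 28 of the 214 groups of 6 mice formed by the genes named by rule at 2 ages, 1 mouse lay apart from the other 5 by more than Dixon's critical value; chance gives about 1 in 20 groups. In most of them it was 4 week mouse 5. Its log2 ratio was above the other 4 week mice for lymphocyte, myeloid and vessel genes: Ighm at 2.694, Cd79b at 2.06, Jchain at 1.741, Wdfy4 at 1.736, Pou2af1 at 1.673, Arhgdib at 1.117, Ngfr at 1.116, Itgb7 at 1.018, Cd5 at 0.464, C1qc at 0.392, Cd3d at 0.113, Ccdc88b at -0.318 and Glycam1 at -1.602. The same mouse was below the others for stress and other genes: Ddit3 at -2.024, Maff at -1.838, Chac1 at -1.569, Tnfaip3 at -1.316, Tnfrsf12a at -1.01, Hmox1 at 0.296 and the glycolytic enzyme Ldha at 1.072. Its B cell genes lay near the 12 week mice, which ran from 2.01 to 3.70 for Ighm.

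The other mice that stood apart by this rule did so in few genes. Over the type I interferon list, 4 week mouse 4 had the highest mean ratio of its age, at 2.08. At 4 weeks, mouse 4 was high for Krt19 (1.959) and Sdc1 (1.923) and low for Birc5 (-1.025), and mouse 3 was low for Ins1 (-2.309) and high for Cd4 (0.624). At 12 weeks, mouse 4 was high for Wdfy4 (4.097), and mouse 2 was high for Cldn4 (-1.352) and low for Cd3e (-0.086).

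For 19 named genes every mouse of one age was below its pool and every mouse of the other above it. Limma called the difference between the ages for each. That adds no support, because the naming rule took many of the named genes from those called. Upward these were Glycam1 (4.687), Ccdc88b (3.512), Hspa1a (2.558), Cdc20 (2.495), Il2rb (2.484), Hspa1b (2.408), Birc5 (2.388), Mki67 (2.232) and Il1r2 (1.203). Downward they were Krt19 (-2.438), Creld2 (-2.298), Spink1 (-2.196), Reg1 (-2.148), Derl3 (-1.96), Hsp90b1 (-1.89), Hba-a2 (-1.884), Hba-a1 (-1.861), Hspa5 (-1.488) and Sdc1 (-1.17). The side of 0 depends on the centring of the arrays.

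The spike-in probes, which the comparison left out as controls, differed by -1.089 between the ages after loess, with single transcripts from -1.199 to -0.979, and by 0.34 under median centring.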

How the results depend on the processing

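The main model called 1094 genes, 538 higher and 556 lower. Median centring without loess called 7103 (7078 higher, 25 lower, 99.6% higher) and kept 563 of the calls. Spike-in centring called 11850 after loess (11799 and 51, 99.6% higher) and 4405 without loess (4316 and 89, 98% higher). The scanner software's signals called 4358 (2623 and 1735, 60.2% higher) and kept 1045 of the calls, the table that was deposited gave 3539 (1981 and 1558), normexp with no offset 2448 (1350 and 1098), and dropping the fold floor 7505 (4255 and 3250). The cause was not tested, other than the last, which asks for less. With the replicate number as a block 1131 genes were called, 1093 of them among the calls above, and 540 were higher; the block ended 1 call among the 108 named genes, and the numbers do not pair the samples. Leaving out 1 array called 963 to 1279 genes, with 470 to 623 higher and 493 to 656 lower. The other alternatives gave 910 to 1466 calls. Signs turned for Osmr (0.058), Ins2 (0.833), Slc2a2 (1.401), Amy2a5 (0.548), Cd3e (0.291), Cxcl10 (0.002), Ldha (1.015) and Adora2a (0.104) under median centring. They turned for Ins2 (0.474) with the scanner signals and the deposited table and for Slc2a2 (0.132) with array weights; Slc2a2, at -0.028, ran from -0.22 to 0.295 without 1 array. With spike-in centring after loess they turned for Ins2 (0.567), Slc2a2 (1.061), Amy2a5 (0.259), Cd3e (0.667), Cd4 (0.868) and Ldha (0.652), and without loess for Ins2 (0.493), Slc2a2 (1.061), Amy2a5 (0.208) and Ldha (0.675). Over all alternatives, values of named genes kept direction and side of the threshold 2605 times, lost a call 106 times, gained one 48 times and turned sign 26 times. Leaving out 1 array ended a call in 8 of the 108 named genes: Jchain, Ppy, Rsad2, Mx2, Ifit3, Fos, Osmr and Sdc1. The pool channel had fewer probes above background at 12 weeks, and 12 genes called higher and 2 called lower were above it there on no array.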

Other observations

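Hemoglobin genes were lower at 12 weeks. Hbb-bt, an adult beta globin, had ratios of -0.05 to 1.75 at 4 weeks and of -2.32 to -1.27 at 12 weeks, without overlap, and fell by 2.56 ± 0.40 (SE; adjusted p = 6.831e-05, limma). Hba-a1 and Hba-a2, alpha globins that are nearly identical, fell by 1.86 and 1.88, while Alas2 (-0.57) and Slc4a1 (0.02), also of red cells, were not called. Of fat cell genes, Fabp4 fell by 1.59 (adjusted p = 0.00069); its 2nd probe differed by -1.54 and a 3rd, dimmer one by -0.50. Adipoq was at -0.23. Cfd was well above background in the pool at 12 weeks, on 6 of 6 arrays, and in NOD there on 0 of 6, so the pool was at least 3.83-fold brighter; at 4 weeks the pool was above background on 0 arrays, so no ratio was measured there. Defa1, a defensin gene of Paneth cells, was above background only in the pool at 12 weeks, at least 6.41-fold over NOD. Of 7 Schwann cell genes, Ngfr rose by 1.23 (adjusted p = 0.0007659), with a 2nd probe at -0.01.

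Among the highest genes outside the lists were Ccdc88b (3.51, adjusted p = 3.539e-06) and Myo1g (3.14, adjusted p = 4.46e-05), both of hematopoietic cells, and the protease inhibitor Serpina1d (3.11, adjusted p = 5.532e-05). Of 19 genes that beta cells normally keep silent, only Arhgdib, which leukocytes express strongly, was called, at 2.57 (adjusted p = 0.0003956); Ldha was at -0.44 and turned to 1.01 under median centring. Deaf1 and Adora2a had probes of opposite sign, at -1.71 and 0.33 and at -1.27 and 0.76. The islet autoantigen list (14 genes), the cytosolic ribosomal proteins (28) and the respiratory chain (28) had 0 calls in limma. In these lists 5, 21 and 13 genes had an unadjusted p under 0.05, as had 9075 of all 18085 genes. The median differences were 0.20, -0.55 and -0.13. Under median centring 8, 10 and 25 were called higher, as were 7078 of all 18085 genes. For the ribosomal list the mice of the 2 ages did not overlap in 17 genes (25.3% of all genes did so), and its median turned to 0.87 under median centring, where all genes were at 0.73.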
